A study of Mus musculus with 16 samples.

Results

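The N6-methyladenosine (m6A) regions that lie on mouse chromosome 4 within 20 Mb to each side of the leptin receptor gene Lepr were compared between the livers of db/db mice and lean mice. The rule for members was position, set with earlier results of these data known. Every deposited peak of that stretch was taken, and peaks sharing at least 1 base within a gene were merged. This gave 226 regions from 379 peaks in 112 genes, of 17936 regions in all. The db/db group held 4 males whose strain is given as db/db, without a named background, and the lean group 4 C57BL/6 males. Each mouse gave 1 immunoprecipitated and 1 input library of total liver RNA. Ages, litters and treatments are not part of the sources used here, and the RNA is that of whole liver, so that all its cell types contribute.

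The db mutation, which arose in C57BL/KsJ mice, lies in Lepr and abolishes the signalling form of the receptor for leptin, the hormone of fat cells that restrains feeding. Mice with 2 mutant copies overeat and become obese and diabetic, with fat in the liver. A mutation kept through breeding travels with the stretch of chromosome around it, so that neighbouring genes may carry the alleles of the strain in which it arose. m6A is the most common internal methyl mark of messenger RNA. It is known for its place near stop codons and in last exons and for the core sequence GGAC. In an immunoprecipitation with an antibody to m6A, enriched stretches appear as peaks. The comparison asks whether presence of peaks near Lepr separates the genotypes more than presence elsewhere.

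Sequence was at hand for the starts of transcripts, from RefSeq promoter windows of GRCm38.p6, whose coordinates are those of mm10. Of the 226 regions, 25 covered at least 15 bases of the first 50 of a transcript of their own gene, and 8 of these 25 began exactly at the first base. The transcript strand of the covered bases was searched for GGAC, which 8 of the 25 held. By comparison, 18.9% of the 32851 RefSeq windows hold GGAC in their first 50 transcribed bases. The covered part can be shorter than 50 bases, so that the shares are not over equal lengths. The sequences below, of at most 30 bases each, come from a region listed for the 4 db/db mice alone (Cyp4a32), from a region of 2 lean mice (Fggy), from a region of Jun seen in 1 db/db and 2 lean mice, and from those of Ybx1 and Plin2, which all 8 mice shared. Each is cut from the region merged over mice, and the peak of a single mouse can cover less. The Jun peak of lean mouse 4 ended at 95052198, short of the marked GGAC. Among the Plin2 peaks that of db/db mouse 3 alone reached 86670036. No fixed rule set the choice, and GGAC is more frequent among these sequences than among the 25. Start regions of Jak1 and Rps6, seen in 5 and 4 mice, hold no GGAC and are not shown. All are written 5′ to 3′, and capitals mark GGAC.
Cyp4a32, chr4:115600938-115600967, plus strand: gtgagagtgaGGACagcaacagaagagtgg
Fggy, chr4:95579436-95579465, plus strand: cactgttaaaagaGGACactgagttgagtt
Jun, chr4:95052186-95052215, minus strand: tcaggctggataaGGACtcagagttgcact
Ybx1, chr4:119294464-119294493, minus strand: tcggtagcgggagcggagagcGGACcccag
Plin2, chr4:86670010-86670036, minus strand: agtcaagcgatattttaacagtcgttc
The Cyp4a32 region starts at the first base of the transcript, and GGAC stands within its first 30 bases. Because that region separated the genotypes and carried high folds, its start is also shown with the 250 bases of promoter before it, at chr4:115600688-115600967, in which the last 30 bases lie in the region.
Cyp4a32 promoter and start: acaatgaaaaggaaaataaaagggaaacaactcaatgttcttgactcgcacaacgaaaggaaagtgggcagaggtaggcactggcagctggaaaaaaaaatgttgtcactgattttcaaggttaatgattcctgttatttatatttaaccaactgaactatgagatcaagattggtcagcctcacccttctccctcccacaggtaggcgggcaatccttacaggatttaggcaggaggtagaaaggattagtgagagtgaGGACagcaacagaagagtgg

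Of the 17936 regions of the genome, 30 were listed for every mouse of a single genotype and for none of the other, or 0.167% called. Around Lepr 2 of 226 regions did so, or 0.885%. Both were of db/db mice, a direction in which 0.0725% of all regions were called, and 0 were of lean mice, against 0.0948%. Of the rest of chromosome 4, 2 of 945 regions did so, both in lean mice, and of the rest of the genome 28 of 17710. Both regions around Lepr belonged to a single pair of neighbouring genes, Cyp4a31 and Cyp4a32, which encode fatty acid hydroxylases of the cytochrome P450 family and lie 13.8 to 13.9 Mb from the start of Lepr. With Cyp4a genes left out, 0 of the remaining 211 regions were called. No region passed Fisher's exact test after Benjamini-Hochberg adjustment over all 17936 regions. At 4 against 4 mice its smallest unadjusted p is 0.0286, which 2 of the 226 regions reached. Only the 30 regions listed for a single genotype reach that p, too few among 17936 for any to pass. The adjusted test could therefore not decide for or against a region.

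With a looser call, a difference of at least 3 mice between the genotypes, 1.14% of all regions were called, and 4 of 226 around Lepr, or 1.77%. All 4 had the peak in more db/db than lean mice, a direction in which 0.479% of all regions were called, and all 4 lay in Cyp4a31 or Cyp4a32. None leaned towards lean mice, against 0.663% of all regions. Without db/db mouse 1 the count was 2, and with every list held to its 2475 peaks of highest fold it was also 2. By chromosome, the share called ran from 0.777% on chromosome X to 1.83% on chromosome 12, over the 20 chromosomes with at least 200 regions. Around Lepr no region outside the Cyp4a genes differed by more than 2 mice.

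**Figure D1:**
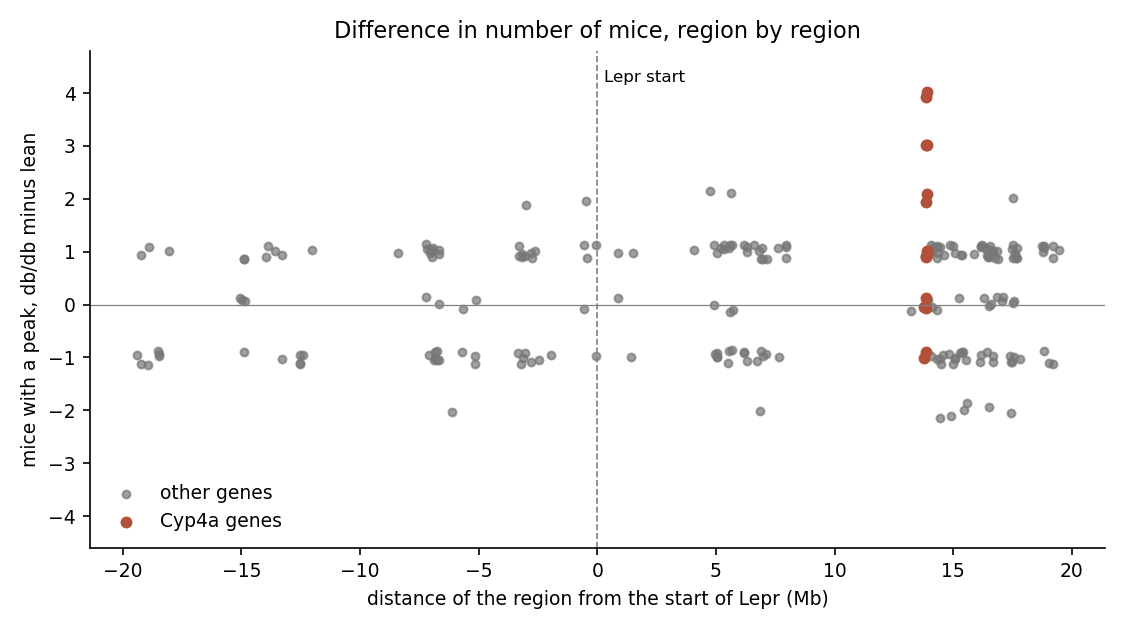
Difference in the number of mice with a peak (db/db minus lean) for each of the 226 regions, against distance from the start of Lepr in Mb. Points are shifted a little up or down so that they can be told apart, and the differences of 3 and 4 mice stand only in Cyp4a genes, 13.8 to 13.9 Mb from Lepr.

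The region at the start of Cyp4a32 (gene ID 100040843) lay at chr4:115600938-115601163, and carried the highest folds of the 4. Its fold enrichment, a value that the authors deposited and that is relative to each list's own background, was 49.28, 79.06, 57.44 and 195.42 in db/db mice 1 to 4, and no lean mouse had a listed peak. In every db/db mouse the peak started at the same base, which is the annotated first base of the transcript. In each of them its fold stood between the percentiles 96.7 and 99.2 of its list. Its length varied more, from 147 to 226 bases. Fisher's exact p was 0.0286 and its adjusted p was 1.

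Further into Cyp4a32, the region at chr4:115602315-115602404 had folds of 9.34, 7.68 and 10.44 in db/db mice 1, 3 and 4, and no peak in db/db mouse 2 or in any lean mouse (Fisher's exact p = 0.143, adjusted p = 1). The gene had 3 more regions, seen in 1 or 2 db/db mice. In all, db/db mice had 11 peaks in Cyp4a32 and lean mice 0. A missing peak can mean no methylation, little transcript or too few reads, and the files do not separate these. In whole liver, fewer cells of a type and less RNA per cell cannot be told apart either.

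Cyp4a31 (gene ID 666168) had peaks in all 8 mice, over 8 regions. At chr4:115565671-115565715 its folds were 19.19, 7.78, 9.37 and 14.66 in db/db mice 1 to 4, against no listed peak in lean mice (Fisher's exact p = 0.0286, adjusted p = 1). The peak covered the same 45 bases in each of the 4 db/db mice. Shared edges were not particular to db/db mice, since in both genotypes every peak of the region at 115570763 started at that base. Exons were not used here, and what sets such edges was not tested. At chr4:115565010-115565154 all 4 db/db mice and lean mouse 2 had a peak, with the lean fold, 13.15, inside the db/db range of 7.17 to 23.74 (Fisher's exact p = 0.143, adjusted p = 1). At chr4:115570763-115570867 the folds overlapped: they were 25.7, 6.47, 10.03 and 14.2 in db/db mice 1 to 4, against 9.54, 25.45 and 9.68 in lean mice 2 to 4. The deposited score there, -10 times the log10 of a p-value, was 3161.02, 165.77, 1507.41 and 2335.85 in db/db mice 1 to 4. In lean mice 2 to 4 it was 162.89, 527.7 and 100.51. Thus db/db mice 1, 3 and 4 stood above these lean mice, and db/db mouse 2 within their range. Elsewhere the highest score could be that of a lean mouse, as at the end of Jak1, or of a db/db mouse, as at Plin2. Scores were not tested, and neither was their dependence on the depth of the libraries, which is unknown. Lean mouse 1 had its only Cyp4a31 peak in another region, shared with db/db mouse 1. Cyp4a31 was thus listed in both genotypes. Its regions at 115563713, 115565010, 115569709 and 115570763 had peaks of both. Only that at 115565671 was listed for every mouse of a genotype and none of the other. Those at 115570303, 115570958 and 115578548 were seen in 1 or 2 mice of a single genotype.

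The remaining Cyp4a genes had few peaks. Cyp4a30b had 1 region near its end, with a fold of 51.65 for db/db mouse 1 against 29.37 for lean mouse 3. Cyp4a14 had 1 peak in lean mouse 1, and Cyp4a10, Cyp4a12a, Cyp4a12b and Cyp4a29 had none. Over the 15 regions of the family, db/db mice 1 to 4 had 13, 4, 6 and 6 regions with a peak, against 2, 2, 3 and 2 in lean mice 1 to 4. The genotypes did not overlap in this count, the closest being 4 and 3. It was singled out after its values were seen and has no test. The 15 regions are the union over all mice. The 5 of Cyp4a32 and those of Cyp4a31 at 115565671, 115570958 and 115578548 entered through db/db mice alone. Those of Cyp4a14 and of Cyp4a31 at 115570303 entered through lean mice alone, so that the set itself favours db/db mice. As shares of the 15 regions these were 86.7%, 26.7%, 40% and 40% for db/db mice 1 to 4, against 13.3%, 13.3%, 20% and 13.3% for lean mice 1 to 4. Over the rest of the genome the same mice had a peak in 26.4%, 15.6%, 20.1% and 23.4% of regions for db/db, against 24.3%, 16.4%, 13.5% and 16% for lean, and there the genotypes overlapped.

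Members of the family are alike in sequence, and reads of one can be placed in another, which makes the values of Cyp4a31 and Cyp4a32 uncertain. Some peaks of the 2 genes had equal lengths in a mouse and others did not. In db/db mouse 1, 63 bases were covered at chr4:115565092-115565154 of Cyp4a31 and at chr4:115602342-115602404 of Cyp4a32, and in db/db mouse 4, 45 bases at chr4:115565671-115565715 and at chr4:115602928-115602972. In db/db mouse 1 the peak at 115565671 held 45 bases and that at 115602928 held 43, and in db/db mouse 3 the peak at 115565010 held 145 bases and that at 115602342 held 63. The part that shared reads have in the result was not tested.

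**Figure D2:**
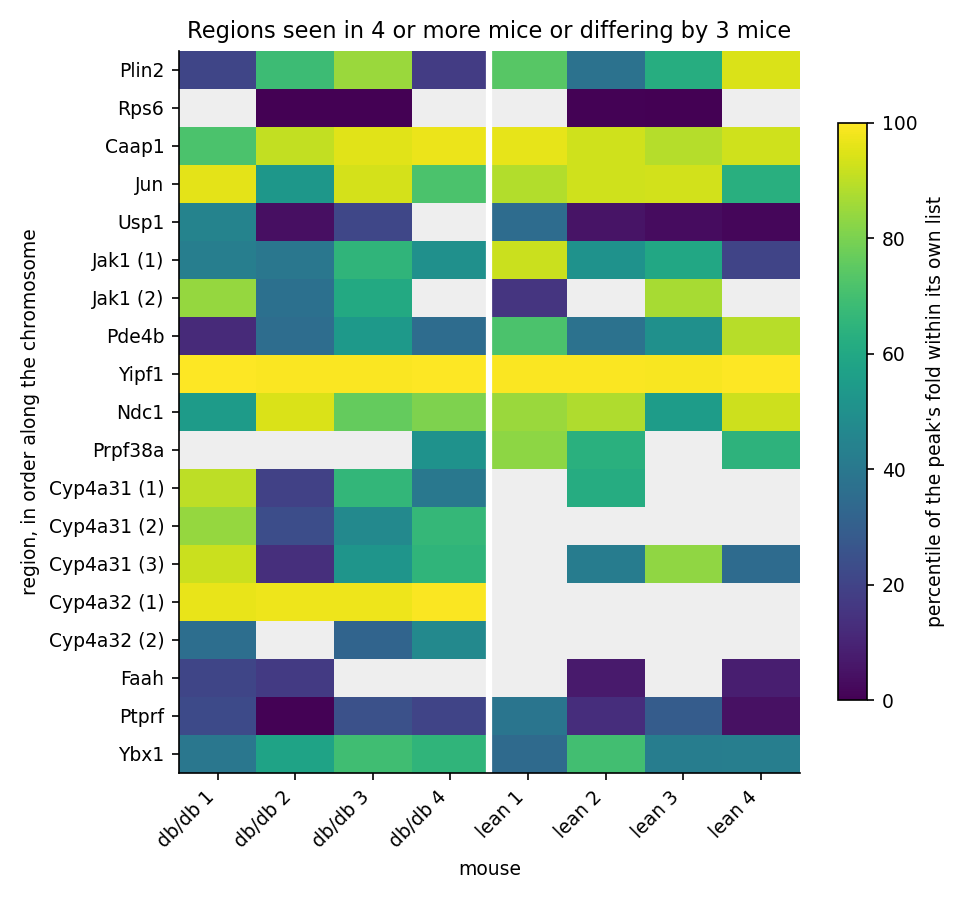
Regions around Lepr with a peak in 4 or more mice, or differing by 3 mice, in order along the chromosome, with db/db mice on the left and lean mice on the right. Colour gives the percentile of the highest peak's fold within its own list and pale grey means no listed peak, as in all lean mice for Cyp4a32 and for the second region of Cyp4a31 drawn.

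Over all 226 regions, the share with a peak was 30.5%, 18.6%, 19% and 24.3% in db/db mice 1 to 4, against 25.2%, 15.5%, 15.9% and 16.8% in lean mice 1 to 4. The genotypes overlapped, since lean mouse 1 stood above 3 of the db/db mice. The mean (± SD over 4 mice each) was 23.1% ± 5.59 for db/db, against 18.4% ± 4.61 for lean mice. Their difference of 4.76 percentage points was within the spread between mice (two-sided exact permutation test, p = 0.2). Adjusted over the 6 values tested per mouse, p was 0.8286 for each of the 6. With every list held to 2475 peaks the difference was 0.654 percentage points. Over the rest of the genome db/db mice had 21.4% ± 4.64 and lean mice 17.6% ± 4.69, which differed by 3.79 percentage points (p = 0.314 by the exact permutation test).

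The share around Lepr was therefore set against the share over the rest of the genome in the same mouse. The excess was 4.14, 3.01, -1.07 and 0.903 percentage points in db/db mice 1 to 4, against 0.879, -0.962, 2.42 and 0.778 in lean mice 1 to 4. Each genotype had 1 mouse below 0, and the ranges overlapped. The means were 1.75 ± 2.31 and 0.778 ± 1.38 percentage points in db/db and lean mice (± SD), and their difference of 0.969 did not pass the exact permutation test (p = 0.486). Against the rest of chromosome 4 db/db mice had an excess of 0.633 ± 3.20 and lean mice of -0.288 ± 1.23 percentage points, which differed by 0.921 (p = 0.686 by the exact permutation test). Without Cyp4a genes the difference turned to -1.06 percentage points against the genome and to -1.11 against the rest of chromosome 4 (exact permutation p = 0.429 and 0.6). The positive sign of both thus rested on 15 regions of 4 genes, and 4 against 4 mice cannot give a p below 0.0286.

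**Figure D3:**
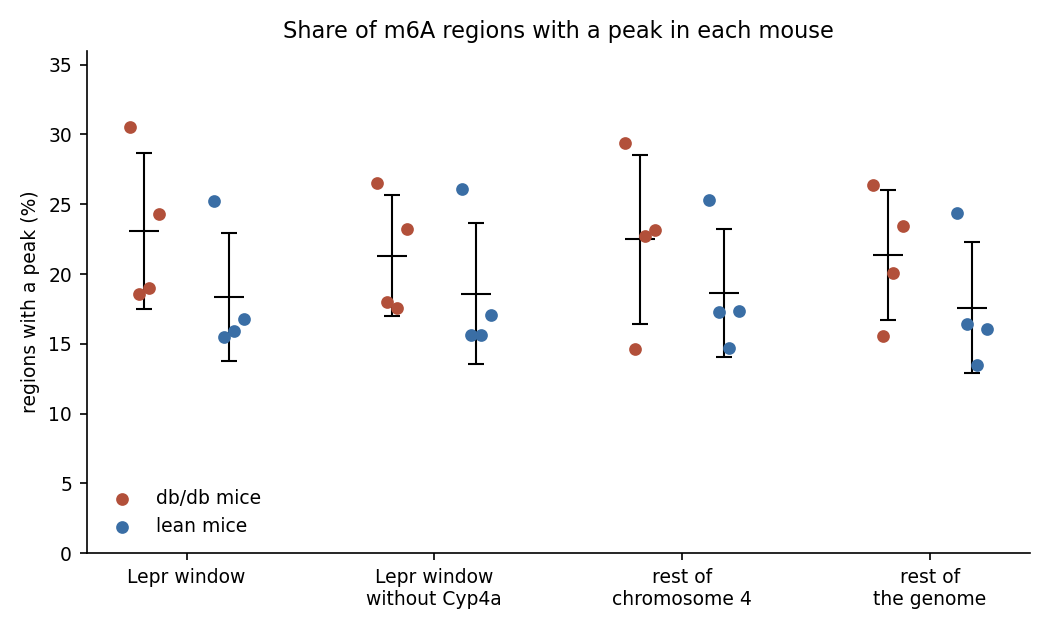
Share of regions with a peak in each mouse (points), with mean and SD over 4 mice (bars), db/db mice left of lean mice, for regions around Lepr with and without Cyp4a genes, for the rest of chromosome 4 and for the rest of the genome. Around Lepr db/db mice lay between 18.6% and 30.5% and lean mice between 15.5% and 25.2%, and the genotypes overlapped in all 4 sets.

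Peaks around Lepr made up 1.36% ± 0.144 of a list for db/db, against 1.32% ± 0.117 for lean mice (p = 0.514 by the exact permutation test). Their median length was 75.4 ± 21.9 bases for db/db, against 78.3 ± 9.71 bases for lean mice (p = 0.8286 by the exact permutation test). The median percentile of their fold within the list was 47.3 ± 3.18 for db/db, against 48.1 ± 4.56 for lean mice (p = 0.743 by the exact permutation test). Percentiles of lists of different lengths cannot show whether methylation changed.

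Sharing of regions between mice is given as counts without a test. Of the 31 regions seen in exactly 2 mice, 14 were shared within a genotype, 7 by db/db mice and 7 by lean mice, and 17 by 1 mouse of each, so that 45.2% were shared within a genotype. Such sharing made up 44.7% over the rest of the genome and 43.4% over the rest of chromosome 4. The Jaccard index of regions, the share of regions of either mouse that both have, averaged 19.4% over the 6 db/db pairs, 19.9% over the 6 lean pairs and 18.1% over the 16 mixed pairs. Without Cyp4a genes the db/db pairs averaged 15.5%, below the mixed pairs at 18.4%, with lean pairs at 20.2%. Over the rest of the genome the values were 13.1% for db/db, 15.8% for lean and 13.9% for mixed pairs, and over the rest of chromosome 4 they were 15.1%, 21.2% and 16.9%. Pairs share mice, and the values are given as a description.

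**Figure D4:**
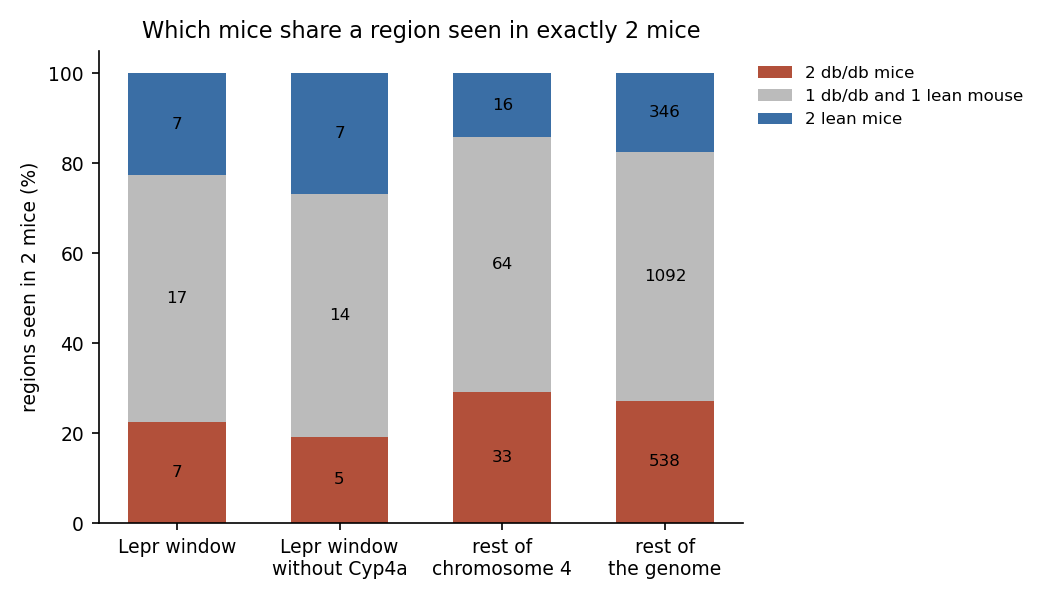
Regions seen in exactly 2 mice, split by which mice share them, as a percentage of such regions around Lepr, around Lepr without Cyp4a genes, on the rest of chromosome 4 and in the rest of the genome. Numbers in the bars are counts of regions. Regions shared by 1 db/db and 1 lean mouse make up more of each bar than either genotype's pairs. There are 16 such mixed pairs of mice against 6 within each genotype, so that the number of pairs alone favours mixed sharing.

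By distance from Lepr, the differences are given without a test. In the 10 Mb before Lepr lay 47 regions, with a mean share of 25.5% in db/db and 22.9% in lean mice, and in the 10 Mb after its start 47 regions with 22.3% and 17.0%. Farther out, 25 regions lay 10 to 20 Mb before Lepr with 18.0% in db/db and 20.0% in lean mice, and 107 regions lay 10 to 20 Mb after it with 23.6% and 16.6%. Regions differing by 3 or more mice were found in the last of these bins alone, which holds the Cyp4a genes. The difference, db/db minus lean, was 7.01 percentage points in that bin and 5.32 in the 10 Mb after the start of Lepr. Without Cyp4a genes, an alternative chosen after seeing the data, the far bin held 92 regions and its difference was 2.72. The largest of the 4 was then the 5.32 just after Lepr. By comparison, db/db minus lean was 3.79 percentage points over the rest of the genome and 3.84 over the rest of chromosome 4. Whether any bin departs from these was not tested. Within 10 Mb of Lepr, 4 regions differed by 2 mice towards db/db and 2 towards lean. The share of all regions that differ so was not computed, so that these counts cannot be set against the genome.

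Lepr itself, at chr4:101717137-101815352, had no listed peak in any mouse. Its neighbour Leprot, whose product limits the receptor at the cell surface, had 1 region with folds of 35.12 and 12.8 for db/db mice 1 and 2, against 10.12 for lean mouse 4, and another in lean mouse 4 alone. Jak1, the kinase that signals from cytokine receptors, had 4 regions within 0.6 Mb of Lepr. The one at the end of the gene, chr4:101152849-101153382, was found in all 8 mice. Its folds were 10.17, 9.95, 12.6 and 10.85 in db/db mice 1 to 4, against 22.09, 10.94, 15.83 and 7.67 in lean mice 1 to 4, which overlap. At the start of Jak1 the region at chr4:101265042-101265189 was seen in 3 db/db and 2 lean mice. A short region of 19 bases at chr4:101257534-101257552 was seen in db/db mice 2 and 4 only (Fisher's exact p = 0.429, adjusted p = 1).

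A larger share of regions around Lepr than elsewhere recurred in every mouse. All 8 mice shared 9 of the 226 regions, or 3.98%, against 1.80% of the rest of chromosome 4 and 1.20% of the rest of the genome, which is a description without a test. With lists held to 2475 peaks, 4 were shared by all. Shares around Lepr and elsewhere were not computed for that setting, so that the larger share is shown for the full lists only. The 9 genes were Plin2, Caap1, Jun, Jak1, Pde4b, Yipf1, Ndc1, Ptprf and Ybx1. Of these regions, 4 lay in the last 10% of the annotated gene (Caap1, Jak1, Pde4b and Ndc1), 2 in the first 10% (Plin2 and Ybx1) and 3 between. Of the 190 regions around Lepr with a gene strand, 26.8% lay in the last 10% of the gene and 21.6% in the first, against 26.6% and 21.1% over the rest of the genome. Positions are along the genomic gene, introns included, since exons were not used here.

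Plin2, which coats lipid droplets, had its region within the first 1% of the gene, at chr4:86669945-86670036. Its folds were 7.49, 16.17, 17.91 and 6.45 in db/db mice 1 to 4, against 13.73, 8.87, 16.05 and 41.65 in lean mice 1 to 4. Lean mouse 4 stood highest, and the other values overlapped. On the minus strand of this gene, all 8 peaks shared their 3′ edge, 86669945, and their edges towards the transcript start differed. What sets the shared edge was not tested.

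Jun, the immediate early transcription factor, had its shared region at chr4:95049732-95050417, the longest of the 9 at 686 bases. Its folds were 40.77, 12.17, 25.79 and 16.41 in db/db mice 1 to 4, against 19.16, 31.97, 40.31 and 15.01 in lean mice 1 to 4. Jun had 3 further regions, each in 1 to 3 mice. The region of Ybx1, which encodes an RNA-binding protein, lay at chr4:119294355-119294523 with folds from 9.79 to 14.28 in db/db and 7.77 to 15.54 in lean mice.

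Pde4b, a phosphodiesterase that breaks down cyclic AMP, had its region at chr4:102604992-102605419, with a median fold of 10.4. The region of Ptprf, a receptor tyrosine phosphatase, lay at chr4:118236198-118236494 with a median fold of 6.77. That of Ndc1, a membrane nucleoporin, lay at chr4:107414060-107414294 with a median fold of 17.3, and that of Caap1, a regulator of apoptosis, at chr4:94501046-94501302 with a median fold of 31.3.

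Yipf1, a membrane protein gene of the Golgi, stood apart by its folds. Its region of 67 bases at chr4:107320076-107320142 had folds of 2142.43, 454.65, 421.55 and 920.87 in db/db mice 1 to 4, against 673.51, 546.11, 529.32 and 2738.48 in lean mice 1 to 4. Every value lay at or above the 99th percentile of its list, and the genotypes overlapped. None of the 226 regions overlapped an annotated small RNA gene of up to 400 bases.

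Counted by gene, 1 of the 112 genes around Lepr, Cyp4a32, was listed for every db/db mouse and no lean mouse. Of all 8284 genes 0.205% were called so, 0.133% in the lean direction and 0.338% in either. A difference of at least 3 mice was found in 4 genes, or 3.57%, close to the 3.54% called over all genes, which is 2.44% towards db/db and 1.1% towards lean. Besides Cyp4a32 these were Ssbp3, a transcriptional cofactor, in 3 db/db and no lean mice, and Rnf220, a ubiquitin ligase, and Ttc39b, in 3 lean and no db/db mice. In Ssbp3 and Ttc39b no region was shared by mice, and in Rnf220 only 1 region was shared, by 2 lean mice. More mice of one genotype had a peak in 44 genes for db/db and in 38 for lean, with 30 equal. That is 39.3% towards db/db and 33.9% towards lean, against 45.3% and 32.3% over all genes, and the median difference was 0, as it was over all genes.

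Counts by function are read against 32.2% of the protein-coding genes of the stretch with a peak and 36% of those of the genome, and against the leanings over all genes given above. None of the lists was tested. The list of the leptin receptor and its signalling held 6 genes of the stretch, among them Ak4, an adenylate kinase gene that neighbours Lepr, and 3 had a peak, Jak1, Leprot and Pik3r3. Of 19 listed symbols of lipid and sterol metabolism, of which Plpp3 and Ppap2b name the same gene, 6 had a peak. Plin2 had it in all mice, and Faah, which degrades endocannabinoids, in 2 mice of each genotype. Acot11, an acyl-CoA thioesterase, and Cyp2j9 were each listed for 1 db/db and 3 lean mice. Cyp4b1 was listed for 2 db/db mice and 1 lean mouse. Lrp8, Cpt2 and Scp2 had none. No gene of this list was called by either rule.

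Of 19 genes of transcription and chromatin 9 had a peak, and 4 leaned towards db/db, 3 towards lean, with 2 equal, where over all genes 45.3% leaned towards db/db and 32.3% towards lean. Jun and Ybx1 had peaks in every mouse, Kdm4a, a histone demethylase, in 2 db/db mice against 1 lean mouse, and Ssbp3 in 3 against 0. Of 13 genes of kinases and signalling 8 had a peak. Tek, the angiopoietin receptor of endothelial cells, had a peak in 3 mice of each genotype over 6 regions. Of the 8 genes with a peak, 3 leaned towards db/db, 1 towards lean and 4 towards neither, where 45.3% and 32.3% of all genes leaned towards db/db and lean.

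Of 8 genes of the ubiquitin system 3 had a peak, Usp1, Rnf220 and Rlf, the last a zinc finger gene counted in that list. Usp1, a deubiquitylating enzyme of DNA repair, had a region at chr4:98934384-98934765 in 3 db/db and 4 lean mice, with a median fold of 5.11. Of 11 symbols of RNA and translation, of which Tut4 and Zcchc11 name the same gene, 6 had a peak. Prpf38a, a splicing factor, had 1 region in 1 db/db and 3 lean mice, and Nsun4, a mitochondrial RNA methyltransferase, had peaks in 3 db/db mice and 1 lean mouse with no region shared. Rps6, a ribosomal protein gene, had a peak in 2 mice of each genotype. Of 11 cell cycle genes 4 had a peak, Usp1, Cdkn2c, Cdkn2b and Plk3, and C8a and C8b, complement genes of hepatocytes, had none.

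Markers of liver cell types, sought over the whole genome, had peaks in 3 of 8 hepatocyte, 4 of 5 macrophage, 5 of 5 stellate, 5 of 5 sinusoidal endothelial, 3 of 4 cholangiocyte, 1 of 4 lymphocyte and neutrophil and 0 of 3 adipocyte genes, and none was called by either rule. Alb, the main hepatocyte transcript, had no listed peak, which says nothing of its level. Lists held 2475 to 4807 peaks, of which 35 to 71 per mouse lay around Lepr, and the depth of the libraries is unknown. Beyond sex and strain, the labels mark the mice only as separate samples, and the genotype and any strain alleles near Lepr cannot be told apart.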

How the data were processed

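m6A immunoprecipitation of liver RNA from 4 db/db and 4 lean mice gave 8 deposited peak lists, 1 per mouse, matched to libraries by sheet name. Per the submitters' processing notes, cutadapt 1.9.3 and HISAT2 2.0.4 were used with mm10. Peaks carry MACS-style names in the lists, and how the caller was set and whether it used input is not given in the sources used here. Mice were not pooled. The fold enrichment is a ratio that the authors deposited, relative to its list's background. The deposited score, -10 times the log10 of a p-value per the file headers, served to order ties in fold. Its values are given for the Cyp4a31 region at 115570763 alone, and 8 further columns were not used. Peak length in bases was deposited too. The 8 input libraries were not analysed here.

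Starts were converted to count from 1. The region, the unit of presence, is a set of overlapping peaks within a gene name. Members and gene lists were chosen with earlier results of these data known. Values per mouse were compared by exact two-sided permutation over 70 assignments, adjusted by Benjamini-Hochberg over 6 tests, and regions by Fisher's exact test adjusted over 17936 regions, with Python 3.11.15 and SciPy 1.17.1. Functions were tested on simulated data. Named regions were those of Lepr, Leprot and Jak1, those called, those in all 8 mice, the 5 of highest fold percentile in 4 or more mice, and up to 4 genes per list, with other genes chosen after their values were seen. Some list members are counted but not reported here by name. Gene bounds came from RefSeq GRCm38.p6, which matched 225 of 226 regions. No exons or genome sequence were used. Peak lists give no read counts, so that depth and its precision are unknown, and p-values measure the spread between mice only. Alternatives were 10 Mb to each side, no Cyp4a genes, genes as units, merging within 100 bases, folds of at least 4.7, the 2475 peaks of highest fold per list, regions in at least 2 mice, mouse number as a block, and 1 mouse omitted at a time.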

Additional observations from a re-analysis of the deposited data

Results flagged for a closer look

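In 3 of 41 groups of 4 mice examined, 1 mouse lay far from the rest, where chance gives about 1 in 20. Lean mouse 1 had a peak in 25.2% of the regions around Lepr, against 15.5% to 16.8% in the other lean mice. Lean mouse 3 had a peak in 3 of the 15 Cyp4a regions, against 2 in each of the others, where equal values make any step stand out. Lean mouse 4 had a fold of 2738.48 at the Yipf1 region, against 529.32 to 673.51 in the other lean mice.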

How the results depend on the processing

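None of the 91 tests of values per mouse under the alternatives had an unadjusted p under 0.05. The excess of the share around Lepr, db/db minus lean, was -2.84 percentage points against the rest of the genome and -3.42 against the rest of chromosome 4 with genes in place of regions, and -1.06 and -1.11 with Cyp4a genes left out. Against the rest of chromosome 4 it was -0.0264 with 10 Mb to each side. The share of a list's peaks turned to -0.122, -0.0185 and -0.0646 percentage points with genes, with 10 Mb and without Cyp4a genes. The median fold percentile turned to 1.39 with lists of equal length and to 0.572 over regions in at least 2 mice. Regions listed for a single genotype in all its mice numbered 0 with 10 Mb, 0 without Cyp4a genes and 1 by gene. The number differing by 3 or more mice was 0, 0 and, with lists of equal length, 2, since the regions of Cyp4a31 at 115565010 and of Cyp4a32 at 115602315 then differed by 2 mice. With equal lengths 4 regions, not 9, were shared by all mice.

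Leaving out each mouse in turn, the difference in share around Lepr lay between 2.69 and 8.12 percentage points, against the genome between 0.172 and 2.32, against chromosome 4 between -0.181 (without db/db mouse 2) and 2.78, and in share of peaks between 0.000819 and 0.110. That in median length lay between -12.1 and 5.75 bases, and was positive without db/db mouse 4 (5.75) or lean mouse 2 (0.0417). That in fold percentile lay between -2.27 and 1.03, and was positive without db/db mouse 1 (0.598) or lean mouse 3 (1.03). Between 2 and 3 regions were called in one genotype only and between 2 and 4 by the looser rule, with 2 without db/db mouse 1. The labels do not say whether the mouse numbers pair the mice. Deviations of same-numbered mice correlated at -0.0422, 0.0310, -0.0143 and -0.00827 over 4202 regions. Those of differently numbered mice of the 2 genotypes ran from -0.0408 to 0.0563. Such values show no likeness by number in presence of peaks, and cannot show that the mice were unpaired. With a replicate block the p of the 6 values per mouse lay between 0.125, the smallest it allows, and 0.875, and the 2 counts were the same by construction. Merging within 100 bases leaves the peak-based values as they are, and genes as units give no peak lengths or percentiles. The causes of these changes were not tested. Unknown depth limits what a missing peak shows.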
